A study of Mus musculus with 30 samples.

Results

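The 10 heat shock chaperone genes Hspb1, Hspa1a, Hspa1b, Hspa8, Dnajb1, Hsph1, Hsp90aa1, Hsp90ab1, Hspd1 and Hspe1 were followed across the livers of mice whose dams had received a bisphenol S compound or estradiol. They were taken by gene symbol, and all 10 were found among the 17990 genes of the count table. All 10 passed the filter on low counts in every fit. The animals were ICR mice, an outbred stock. Dams drank water with 2,4-BPS, BPSIP, bisphenol S (BPS) or estradiol (E2) from the start of pregnancy until the pups were weaned, for approximately 40 days, at 10 ng/mL. The dose aimed at was 5 µg for each kg of dam a day. Control dams drank the ethanol vehicle alone at the same 0.001%, and each of the 5 treatments had 8 dams. The offspring were therefore exposed through their mothers and were sampled at 10 weeks. RNA of 30 livers was sequenced in 10 groups of 3: female and male offspring for each of 2,4-BPS, BPSIP, BPS, E2 and control. The labels describe the 3 livers of a group as coming from litters of different dams.

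Heat shock chaperones bind proteins that have not folded or have lost their fold. In the cytosol HSP70 proteins hold and release unfolded stretches in a cycle driven by ATP, J-domain proteins such as Dnajb1 bring them their clients, and Hsph1 (HSP110) exchanges the nucleotide. HSP90 proteins then finish folding of kinases and of steroid receptors, the oestrogen receptor among them. Small heat shock proteins such as Hspb1 (HSP25 in mouse, HSP27 in human) hold unfolded proteins without ATP. Hspd1 (HSP60) and its lid Hspe1 (HSP10) form the folding chamber of the mitochondrial matrix. The heat-inducible members are switched on by heat shock factor 1, Hsf1, which binds alternating GAA units in their promoters. Hspa8 and Hsp90ab1 are the constitutive forms, and Hspa1a, Hspa1b and Hsp90aa1 the inducible ones. In liver these genes are known to follow body temperature and feeding time as well as damage.

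The promoters of the members hold GAA units, the letters of the Hsf1 motif, in different arrangements, and 4 are printed here to show them: a long run, separate pairs, a single pair, and a run beyond the start. Promoter windows of 300 bases, from 250 before to 50 after the start, were taken from RefSeq on GRCm38.p6 and were at hand for 7 members, all but Hspa8, Hsp90aa1 and Hsp90ab1. A pair of facing GAA units, GAANNTTC or TTCNNGAA, was found in a window of 6 of these 7 genes, against 17% of 27025 genes and 15.1% of their 32851 windows. Both motifs read the same on either strand, and neighbouring matches may overlap. The 6 genes are not separate cases, since Hspd1 and Hspe1 share their stretch and the Hspa1a and Hspa1b windows are nearly alike. Capitals mark the matched bases. Positions are counted from the start base as 0.
Hspe1: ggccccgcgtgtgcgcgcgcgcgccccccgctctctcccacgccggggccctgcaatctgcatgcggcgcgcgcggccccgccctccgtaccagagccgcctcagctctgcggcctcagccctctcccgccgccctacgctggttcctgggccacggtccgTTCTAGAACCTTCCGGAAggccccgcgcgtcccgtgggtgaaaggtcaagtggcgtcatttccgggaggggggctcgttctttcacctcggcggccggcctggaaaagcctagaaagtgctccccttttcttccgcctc
Hspb1: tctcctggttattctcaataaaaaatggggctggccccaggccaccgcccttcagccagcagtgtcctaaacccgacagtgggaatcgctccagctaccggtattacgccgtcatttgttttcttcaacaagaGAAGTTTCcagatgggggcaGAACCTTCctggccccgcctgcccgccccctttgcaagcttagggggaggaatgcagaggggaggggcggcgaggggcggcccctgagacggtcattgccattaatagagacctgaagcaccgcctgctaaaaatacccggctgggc
Hspa1b: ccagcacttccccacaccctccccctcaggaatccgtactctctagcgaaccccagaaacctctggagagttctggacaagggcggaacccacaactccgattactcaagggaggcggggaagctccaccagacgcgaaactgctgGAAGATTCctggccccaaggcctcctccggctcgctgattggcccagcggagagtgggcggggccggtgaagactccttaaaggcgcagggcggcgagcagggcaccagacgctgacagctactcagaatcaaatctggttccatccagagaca
Hsph1: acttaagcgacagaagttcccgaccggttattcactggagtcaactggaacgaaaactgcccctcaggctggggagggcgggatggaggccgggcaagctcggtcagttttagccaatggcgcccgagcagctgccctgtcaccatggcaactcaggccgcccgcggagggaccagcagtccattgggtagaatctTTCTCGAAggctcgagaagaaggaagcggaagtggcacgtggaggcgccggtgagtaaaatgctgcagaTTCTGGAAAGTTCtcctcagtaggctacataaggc
The Hspe1 window is chr1:55087898-55088197 on the plus strand, the Hspb1 window chr5:135887669-135887968 on the plus strand, the Hspa1b window chr17:34959189-34959488 on the minus strand and the Hsph1 window chr5:149636266-149636565 on the minus strand. Hspe1 and Hspd1 lie head to head, and the run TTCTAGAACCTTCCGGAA at -89 to -72 of Hspe1 holds 4 alternating units. The same run lies, on the other strand, in a promoter window of Hspd1. Such runs of 4 units were found in 0.0244% of windows and runs of 3 units in 0.603%. Hsph1 has 1 run of 3 units, downstream of its start. Hspb1 has a pair of units at -117 to -110 and another at -97 to -90, and Hspa1b has 1 at -104 to -97. In the windows of Dnajb1 these letters were not found. The windows of Hspa1a and Hspa1b differ at 4 of 300 bases, and their coding sequences, the longest reading frames of the GENCODE transcripts, at 11 of 1929 aligned bases. Reads may therefore be shared between these neighbouring genes, and the single values of either are uncertain.

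The libraries contained 29711711 to 37719069 counts. Levels are given as CPM, a gene's counts relative to the effective total of its library. The sum of Y-linked genes was 131 to 169 CPM in exposed males, 84.7 to 95.3 CPM in the libraries labelled male control and at most 0.543 CPM in females. A1bg, which in mouse liver is transcribed in females, was at 0.811 to 4.57 CPM in exposed males, at 1368 to 1622 CPM in the libraries labelled male control and at 1444 to 2638 CPM in females. These libraries therefore go against their label in part. Comparisons of the members with them are given beside a mixed comparison, which still uses them but adds female control counts to the exposed males at the 41.8% share estimated from Y-linked genes. Comparisons of each exposure with the mean of the other 3 of the same sex do not use them. In whole liver, fewer cells of a type and less RNA per cell cannot be told apart. Exposures of a sex share their 3 controls, so chance values of those controls enter all 4 comparisons.

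Per unit of length, the constitutive chaperones stood far above the heat-inducible ones. Averaged over the 10 group means, Hspa8 was at 552 and Hsp90ab1 at 517 FPKM, which divides counts by gene length and library total. The mitochondrial pair Hspd1 and Hspe1 followed at 209 and 174 FPKM, and Hsp90aa1 at 97.6 FPKM. Hspb1, Hsph1, Dnajb1 and Hspa1b lay between 19.7 and 10.2 FPKM, and Hspa1a was lowest at 3.55 FPKM. The order was not the same in every group. In male 2,4-BPS offspring Hspb1 reached a group mean of 127 FPKM, whereas in female 2,4-BPS offspring it was at 1.51 FPKM.

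**Figure D1:**
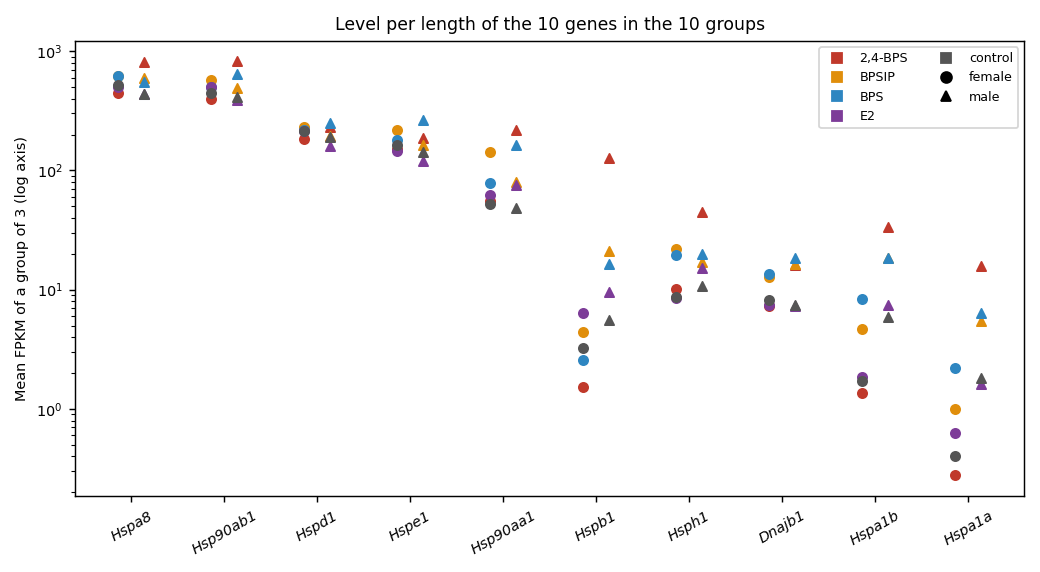
Mean FPKM of the 3 libraries of each group (log axis) for the 10 chaperone genes, females as circles and males as triangles, coloured by exposure. Hspa8 and Hsp90ab1 stand highest in every group, while Hspb1 spans 1.51 to 127 FPKM.

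The members differed in how far their levels moved. The highest group mean exceeded the lowest 84.5-fold for Hspb1, 57.3-fold for Hspa1a and 25.3-fold for Hspa1b. The ratio was 5.59 for Hsph1 and 4.43 for Hsp90aa1, 2.45 for Dnajb1, 2.08 for Hsp90ab1 and 2.07 for Hspe1. It was smallest for the constitutive Hspa8, at 1.83, and for Hspd1, at 1.47. Male 2,4-BPS offspring held the highest group mean for 7 of the 10 genes, and male BPS offspring for Dnajb1, Hspd1 and Hspe1. For Dnajb1 and Hspd1 the male BPS libraries overlapped those of the group next in order. Summed over the 10 genes, the 3 libraries of male 2,4-BPS offspring held 5711 to 5989 CPM, those of male BPSIP 3637 to 3694, of male BPS 4217 to 4362, of male E2 2867 to 2942, and the libraries labelled male control 2897 to 2987. The sums in females were 2773 to 2874 CPM under 2,4-BPS, 3773 to 3854 under BPSIP, 3662 to 3759 under BPS, 3138 to 3303 under E2 and 2921 to 3025 in controls. The 2,4-BPS groups thus held the highest sums among exposed males and the lowest among exposed females, and neither group overlapped another exposed group of its sex.

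**Figure D2:**
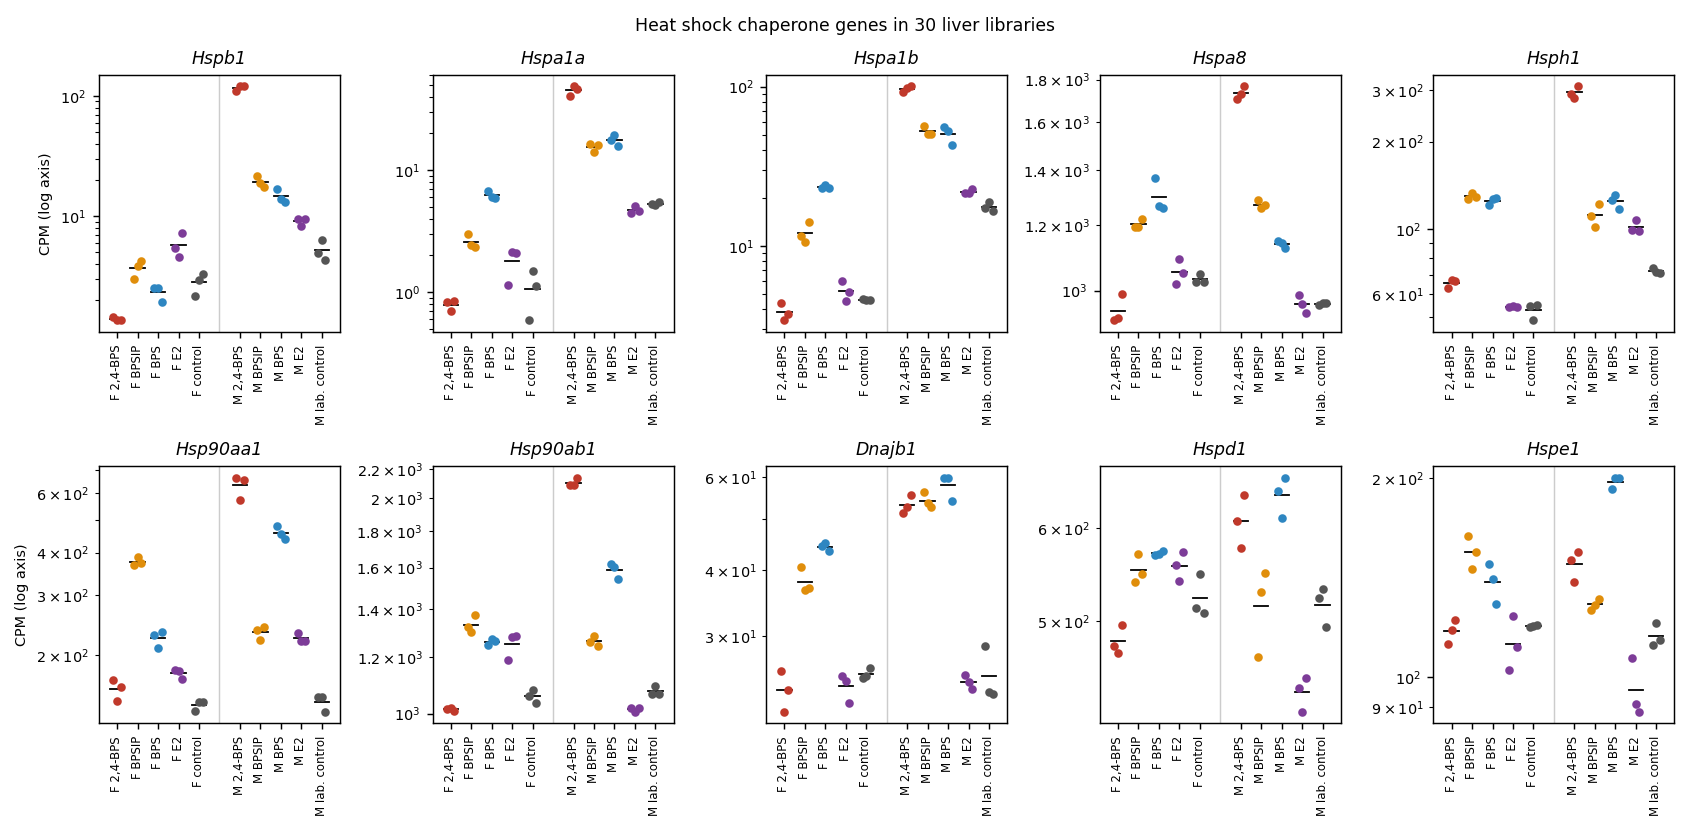
Levels of the 10 chaperone genes in every library (points, CPM on log axes) with the group mean (bar), for 5 female (F) and 5 male (M) groups, the last of each sex being control (for males, labelled control). Male 2,4-BPS libraries lie highest for Hspb1 (111 to 120.3 CPM) and female 2,4-BPS libraries lowest (1.35 to 1.44 CPM).

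Hspb1, the small heat shock protein that also binds actin filaments, moved most. In males it had 111, 120.3 and 120.0 CPM under 2,4-BPS, 21.6, 18.7 and 17.5 under BPSIP, 16.8, 13.8 and 13.2 under BPS, 9.55, 8.2 and 9.42 under E2, and 4.97, 6.35 and 4.35 in the libraries labelled male control. In females it had 1.44, 1.36 and 1.35 CPM under 2,4-BPS, 3.02, 3.83 and 4.21 under BPSIP, 2.51, 2.51 and 1.93 under BPS, 5.44, 4.54 and 7.19 under E2, and 2.15, 2.96 and 3.3 in female controls. The groups of exposed males did not overlap one another, and 2,4-BPS stood apart from the rest, 8.57-fold above the mean of the other 3 exposed male groups (log2 fold change 3.10 ± 0.06, here and below ± standard error, adjusted p = 1.6e-41, edgeR). In females the 2,4-BPS libraries lay below all others, at 0.496 of the level in female controls (-1.01 ± 0.23, adjusted p = 0.0015, edgeR). Female E2 libraries lay above female controls (1.03 ± 0.21), whereas those of BPSIP and BPS overlapped female controls. The female 2,4-BPS libraries held 47 to 54 counts of Hspb1 each, against 3578 to 4021 in the male ones, so the female values carry more counting error.

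Hspa1a and Hspa1b, the inducible HSP70 pair, were highest in the same group of each sex. Hspa1b, the more abundant, had in males 92.4, 98.7 and 101 CPM under 2,4-BPS, 56.7, 50.3 and 50.7 under BPSIP, 56, 52.9 and 43.1 under BPS, 21.3, 21.6 and 22.8 under E2, and 17.2, 18.7 and 16.6 in the libraries labelled male control. In females it had 4.4, 3.39 and 3.74 CPM under 2,4-BPS, 11.5, 10.6 and 14.1 under BPSIP, 23.2, 24.2 and 23.1 under BPS, 5.98, 4.51 and 5.15 under E2, and 4.6, 4.56 and 4.56 in female controls. The highest group was thus 2,4-BPS in males and BPS in females. In female BPS offspring Hspa1b was 5.17-fold and Hspa1a 5.84-fold above female controls (log2 fold changes 2.37 ± 0.13 and 2.55 ± 0.28). In male 2,4-BPS offspring they were 2.51-fold and 4.16-fold above the mean of the other 3 exposed male groups (1.33 ± 0.05 and 2.06 ± 0.08). Female 2,4-BPS offspring lay below the mean of the other 3 exposed female groups for both (-1.56 ± 0.12 and -1.95 ± 0.26), with adjusted p of at most 1.63e-07 (edgeR). Against female controls neither passed the test in that group. In males Hspa1a had 40.2, 48.6 and 46.4 CPM under 2,4-BPS, 16.3, 14.2 and 16 under BPSIP, 17.5, 19.4 and 15.7 under BPS, 4.47, 5.05 and 4.58 under E2, and 5.22, 5.15 and 5.52 in the libraries labelled male control. Its female libraries ranged over 0.696 to 0.839 CPM under 2,4-BPS, 2.36 to 2.97 under BPSIP, 5.92 to 6.7 under BPS, 1.14 to 2.13 under E2 and 0.585 to 1.49 in controls. Male E2 offspring had Hspa1a and Hspa1b levels below every other exposed male library.

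Hspa8, the constitutive HSP70, was highest in the same groups over a much narrower range. It averaged 1734 ± 31.9 CPM in male 2,4-BPS offspring, 1271 ± 14.4 under BPSIP, 1138 ± 10.8 under BPS, 963 ± 24.5 under E2 and 964 ± 2.91 in the libraries labelled male control (SD, n = 3 each). In females it averaged 945 ± 38.8 CPM under 2,4-BPS, 1203 ± 15.4 under BPSIP, 1299 ± 61.3 under BPS, 1053 ± 36.8 under E2 and 1032 ± 14 in controls. Female BPS and BPSIP libraries lay above all other female ones, and male 2,4-BPS libraries above all 27 others. Dnajb1, the J-domain partner that delivers clients to HSP70, differed from the HSP70 genes in males. There it had 51.4, 52.6 and 55.6 CPM under 2,4-BPS, 56.3, 53.6 and 52.7 under BPSIP, 59.9, 59.9 and 54 under BPS, 25.3, 24.5 and 23.8 under E2, and 28.7, 23.5 and 23.2 in the libraries labelled male control. The 3 bisphenol groups of males overlapped one another for Dnajb1 and lay above E2 and the libraries labelled male control. In females it had 25.7, 21.5 and 23.7 CPM under 2,4-BPS, 40.5, 36.6 and 36.9 under BPSIP, 44.3, 45 and 43.4 under BPS, 25.2, 24.6 and 22.4 under E2, and 24.9, 25.2 and 26.1 in female controls. BPS and BPSIP females lay above all other females, and the remaining 3 female groups lay within 21.5 to 26.1 CPM.

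Hsph1, the HSP110 that resets HSP70 and pulls apart aggregates with it, had in males 292, 283 and 309.8 CPM under 2,4-BPS, 111, 102 and 122 under BPSIP, 126, 131 and 118 under BPS, 99.5, 108 and 99.1 under E2, and 73.7, 71.4 and 70.7 in the libraries labelled male control. Male 2,4-BPS libraries lay above those of any other group, 2.63-fold above the mean of the other 3 exposed male groups (log2 fold change 1.39 ± 0.04, adjusted p = 6.98e-38, edgeR). In females it had 62.9, 66.8 and 66.3 CPM under 2,4-BPS, 127, 134 and 129 under BPSIP, 121, 127 and 128 under BPS, 54, 54.4 and 54.3 under E2, and 54.7, 48.7 and 55 in female controls. BPSIP and BPS females overlapped each other and lay 2.46-fold and 2.39-fold above female controls (1.30 ± 0.06 and 1.26 ± 0.06). Female 2,4-BPS offspring lay between those groups and female controls (0.31 ± 0.06, adjusted p = 9.31e-05, edgeR), and E2 females overlapped female controls.

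In females BPSIP, and not BPS, was the highest group for both HSP90 genes. Hsp90aa1, the inducible form, had in males 665, 573 and 655 CPM under 2,4-BPS, 237, 221 and 242 under BPSIP, 479, 455 and 439 under BPS, 232, 220.4 and 219 under E2, and 151, 150.4 and 136 in the libraries labelled male control. In females it had 169, 146 and 161 CPM under 2,4-BPS, 367, 389 and 372 under BPSIP, 228, 209 and 234 under BPS, 180.3, 179 and 170.3 under E2, and 137, 146 and 145 in female controls. Under BPSIP the level was higher in females, and under 2,4-BPS, BPS and E2 in males, with no overlap between the sexes. BPSIP was the highest female group, 2.63-fold above female controls (log2 fold change 1.40 ± 0.06, adjusted p = 2.48e-21, edgeR). Hsp90aa1 passed the test against control in all 4 female groups. The value of female 2,4-BPS, 0.16 ± 0.06, was the smallest and had an adjusted p of 0.0375. It no longer passed when libraries were scaled by totals alone (adjusted p = 0.462) or without female control replicate 1, 2 or 3 (0.177, 0.0625 and 0.0641) or female 2,4-BPS replicate 1 or 3 (0.224 and 0.0947). Hsp90ab1, the constitutive form, had in males 2085, 2088 and 2138 CPM under 2,4-BPS, 1260, 1285 and 1242 under BPSIP, 1621, 1602 and 1545 under BPS, 1017, 1006 and 1018 under E2, and 1064, 1093 and 1066 in the libraries labelled male control. In females it averaged 1015 ± 5.28 CPM under 2,4-BPS, 1332 ± 36.4 under BPSIP, 1260 ± 13.4 under BPS, 1251 ± 54.2 under E2 and 1057 ± 22.6 in controls (SD, n = 3 each). The BPSIP, BPS and E2 females all lay above female controls, and 2,4-BPS females below them without passing the test (-0.05 ± 0.05).

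Hspe1 of the mitochondrial pair was highest in male BPS offspring, not in male 2,4-BPS offspring, whereas for Hspd1 the libraries of these groups overlapped. Hspe1, the lid, had in males 151, 139 and 155 CPM under 2,4-BPS, 126, 129 and 131 under BPSIP, 192, 200.1 and 201 under BPS, 107, 91.1 and 88.6 under E2, and 112, 121 and 114 in the libraries labelled male control. Male BPS libraries lay above those of all other groups, 1.59-fold above the mean of the other 3 exposed male groups (log2 fold change 0.67 ± 0.04, adjusted p = 1.71e-21, edgeR). In females it had 112, 118 and 122 CPM under 2,4-BPS, 164, 146 and 155 under BPSIP, 148, 140.5 and 129 under BPS, 102, 123 and 111 under E2, and 119, 119.6 and 119.7 in female controls. Hspd1, the chamber, averaged 609 ± 31.8 CPM in male 2,4-BPS offspring, 515 ± 43.9 under BPSIP, 640.2 ± 25.9 under BPS, 435 ± 14.9 under E2 and 517 ± 19.8 in the libraries labelled male control (SD, n = 3 each). In females the group means of Hspd1 ran from 481 ± 13.7 CPM under 2,4-BPS to 572 ± 2.39 under BPS, with 523 ± 22.4 CPM in controls. Hspd1 and Hspe1 share the promoter stretch with 4 GAA units printed above. Their lowest group means were both in male E2 offspring. In females BPSIP was the highest group for Hspe1 and BPS for Hspd1.

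Against female controls, BPSIP and BPS were the groups in which most members rose, while under 2,4-BPS and E2 single members did. In BPSIP females 8 of 10 members rose, against 19.4% of all genes tested, and in BPS females 8 of 10, against 9.32%. The median log2 fold change of the members was 0.48 for BPSIP and 0.50 for BPS, beside -0.01 and -0.01 over all genes. Hspb1 and Hspd1 were the members that did not pass in either, with 0.39 ± 0.22 and 0.08 ± 0.05 under BPSIP and -0.26 ± 0.22 and 0.14 ± 0.05 under BPS. The call on Hspe1 under BPS was lost with library totals alone (adjusted p = 0.11, edgeR) and without BPS replicate 1 (0.0559). In E2 females Hspb1, Hsp90aa1 and Hsp90ab1 rose, 3 of 10 against 10.4% of genes, with a member median of 0.14. In 2,4-BPS females Hsph1 and Hsp90aa1 rose, 2 of 10 against 10.9%, and Hspb1 fell, 1 of 10 against 8.42%, shares near those of all genes. The member median was -0.11 there, and the count of lower members was 3 with DESeq2 and 4 with library totals alone.

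**Figure D3:**
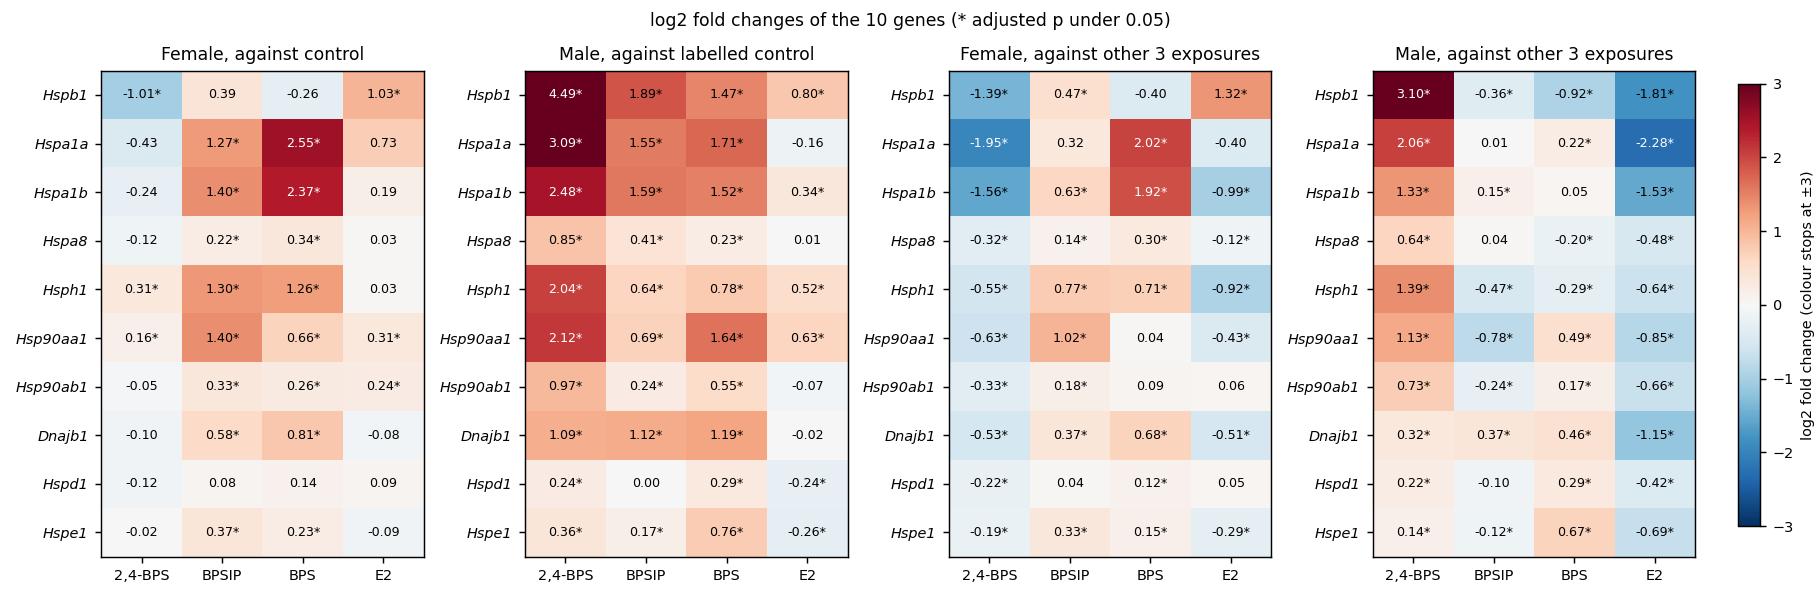
Log2 fold changes of the 10 chaperone genes (down) under the 4 exposures (across), in 4 panels: females against female control, males against the libraries labelled male control, and each sex against the mean of its other 3 exposures; red is higher, blue lower, and a star marks an adjusted p under 0.05 (edgeR). Against the other 3 exposures, 2,4-BPS is blue for all 10 genes in females (-1.95 for Hspa1a) and red for all 10 in males (3.10 for Hspb1).

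Against the libraries labelled male control, all 10 members rose under 2,4-BPS (18.9% of all genes were higher), 9 under BPSIP (17.4%) and all 10 under BPS (20.6%). The member medians were 1.56, 0.67 and 0.99 on the log2 scale. Under 2,4-BPS the log2 fold changes were 4.49 ± 0.10 for Hspb1, 3.09 ± 0.11 for Hspa1a, 2.48 ± 0.08 for Hspa1b, 2.12 ± 0.05 for Hsp90aa1 and 2.04 ± 0.05 for Hsph1. Under E2 Hspb1, Hspa1b, Hsph1 and Hsp90aa1 rose, 4 of 10 against 17.2% of genes, and the mitochondrial Hspd1 and Hspe1 fell, 2 of 10 against 16.4%. In the mixed comparison 10 members were higher under 2,4-BPS, against 19.4% of genes, 9 under BPSIP, against 17.9%, and 10 under BPS, against 20.9%. Its log2 fold changes under 2,4-BPS were smaller, with 3.67 for Hspb1 and 2.27 for Hspa1a. Adding female control counts to the exposed males lowers such values by construction. The E2 result depended more on the mixed comparison: 2 members were higher, against 17.6% of genes, and 5 lower, against 20.1%. There Hspa1b turned to -0.31, Hspa1a was lower at -0.79 and Hspb1 no longer passed (adjusted p = 0.0766, edgeR). Hspe1 under BPSIP (0.17 ± 0.05) was lost without BPSIP replicate 3 (adjusted p = 0.0504, edgeR).

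Comparing each exposure with the mean of the other 3 of its sex needs no control, and it gave opposite results for 2,4-BPS in males and females. In males all 10 members were higher under 2,4-BPS, against 13.5% of genes, with a member median of 0.93. In females all 10 were lower under 2,4-BPS, against 11.7% of genes, with a median of -0.54. For Dnajb1 (0.32 ± 0.06) and Hspd1 (0.22 ± 0.04) the male 2,4-BPS libraries overlapped those of other exposed males. For Hspe1 (0.14 ± 0.04) they lay below the male BPS libraries and above those of male BPSIP and E2 offspring. The call on Hspe1 (0.14 ± 0.04) was lost without male 2,4-BPS replicate 3 (adjusted p = 0.109, edgeR). In females the call on Hspe1 (-0.19 ± 0.05) was lost without female 2,4-BPS replicate 1 (adjusted p = 0.0619, edgeR). In males all 10 were lower under E2, against 14.2%, with a median of -0.77, led by Hspa1a at -2.28 ± 0.10 and Hspb1 at -1.81 ± 0.09. Under male BPS 6 were higher, against 16.9%, Hspe1 most at 0.67, and 3 lower, against 18.9%, Hspb1 most at -0.92. Under BPS the call on Hspa1a (0.22 ± 0.08) was lost without male 2,4-BPS replicate 1, or male BPSIP replicate 2, or male BPS replicate 1 or 2, or male E2 replicate 1 (adjusted p = 0.0525 to 0.274, edgeR) and with all 30 libraries in the fit (0.095). Under male BPSIP 5 were lower, against 15.4%, Hsp90aa1 most at -0.78 ± 0.04. There the call on Hspe1 (-0.12 ± 0.04) was lost without male BPSIP replicate 1 or 2, or male E2 replicate 1 (adjusted p = 0.062 to 0.112, edgeR). Dnajb1 (0.37 ± 0.06) and Hspa1b (0.15 ± 0.06) were higher under male BPSIP, 2 members against 15.9%. The call on Hspa1b was lost without male 2,4-BPS replicate 1, male BPSIP replicate 1 or 3, male BPS replicate 3, or male E2 replicate 1 or 2 (adjusted p = 0.0508 to 0.349, edgeR). It was also lost with library totals alone (0.0638), DESeq2 (0.0783) and all 30 libraries (0.119). In females 8 were higher under BPSIP, against 21.4%, and 7 under BPS, against 14.7%. Under female BPSIP the call on Hspb1 (0.47 ± 0.17) was lost without female BPSIP replicate 2 or 3 (adjusted p = 0.101 to 0.181, edgeR). Under female BPS the call on Hspd1 (0.12 ± 0.04) was lost without female 2,4-BPS replicate 2, or female BPS replicate 2 or 3 (adjusted p = 0.0532 to 0.0858, edgeR). Also under female BPS the call on Hspe1 (0.15 ± 0.05) was lost without female 2,4-BPS replicate 2, or female BPSIP replicate 2, or female BPS replicate 1 or 2, or female E2 replicate 1 (adjusted p = 0.0518 to 0.228, edgeR). Both calls were also lost with library totals alone (adjusted p = 0.169 for Hspd1 and 0.166 for Hspe1, edgeR). Under female E2 6 were lower, against 16.9%, while 1, Hspb1, was higher at 1.32 ± 0.17, against 15.9%. Of the 6, the call on Hspa8 (-0.12 ± 0.04) was lost without female E2 replicate 1 or 3 (adjusted p = 0.0744 to 0.158, edgeR). The 4 contrasts of a sex share their libraries, so they are no independent evidence of one another.

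All compounds were given at the same dose and over the same time, so the 6 pairs of exposures within a sex can be set against each other. Of 60 tests of the 10 members, 48 passed in females, against 31.4% of all tests, and 52 in males, against 31.1%. The 6 pairs of a sex share their libraries, so these tests are not independent of one another. 2,4-BPS is the positional isomer of BPS, with a hydroxyl group moved on a ring. In females all 10 members were lower under 2,4-BPS than under BPS, against 9.23% of genes. The differences were -2.98 ± 0.29 for Hspa1a, -2.61 ± 0.14 for Hspa1b, -0.94 ± 0.06 for Hsph1 and -0.91 ± 0.08 for Dnajb1, and for Hspb1 -0.75 ± 0.24, all on the log2 scale. The call on Hspb1 (-0.75 ± 0.24) was lost without female 2,4-BPS replicate 1, 2 or 3, or female BPS replicate 1 or 2 (adjusted p = 0.0521 to 0.0814, edgeR) and with only the groups compared in the fit (0.0557). In males 7 were higher under 2,4-BPS than under BPS, against 15.2%, with log2 differences of 3.02 ± 0.09 for Hspb1 and 1.38 ± 0.10 for Hspa1a. Hspe1 was lower under 2,4-BPS (-0.40 ± 0.05), 1 member against 12.3%. The differences of Dnajb1 and Hspd1 did not pass, with 95% intervals of -0.24 to 0.03 and -0.15 to 0.04. BPSIP is BPS with an isopropyl ether on a hydroxyl group. Against BPSIP, 2,4-BPS was lower for all 10 members in females (17.3% of genes) and higher for 9 in males (15.8%), with Hsp90aa1 at -1.24 ± 0.06 in females and Hspb1 at 2.60 ± 0.09 in males. Between BPSIP and BPS, 5 members differed in females (39.3% of genes did). Under BPSIP Hsp90aa1 (0.74 ± 0.06) and Hspb1 (0.65 ± 0.22) were higher than under BPS, and Hspa1a (-1.28 ± 0.25), Hspa1b (-0.97 ± 0.12) and Dnajb1 (-0.23 ± 0.07) lower. The call on Hspb1 (0.65 ± 0.22) was lost without female BPSIP replicate 2 or 3, or female BPS replicate 3 (adjusted p = 0.0519 to 0.0921, edgeR). The call on Dnajb1 (-0.23 ± 0.07) was lost without female BPSIP replicate 2 or 3 (adjusted p = 0.0536 to 0.0606, edgeR). The Dnajb1 call was also lost with library totals alone (adjusted p = 0.405, edgeR). The interval for Hsph1 was -0.07 to 0.16. In males 7 differed between BPSIP and BPS (35.4% of genes), with Hsp90aa1 at -0.95 ± 0.05, opposite in sign to females, and Hspe1 at -0.60 ± 0.05. The call on Hsph1 (-0.14 ± 0.05) was lost without male BPSIP replicate 1 or 2, or male BPS replicate 1 or 2 (adjusted p = 0.0599 to 0.291, edgeR). The intervals for Hspa1b and Dnajb1 there were -0.07 to 0.22 and -0.21 to 0.06.

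Within each exposure females and males can be compared without any control library. Under 2,4-BPS all 10 members were lower in females, against 23.5% of genes, with no overlap between the sexes for any of them. Hspb1 averaged 1.39 ± 0.0463 CPM in females and 117 ± 5.41 CPM in males (SD, n = 3 each), a log2 difference of -6.40 ± 0.16. For Hspa1a the log2 difference was -5.83 ± 0.19, for Hspa1b -4.66 ± 0.11, for Hsph1 -2.18 ± 0.06 and for Hsp90aa1 -1.99 ± 0.06. The mitochondrial pair differed least, with -0.34 for Hspd1 and -0.34 for Hspe1. Under BPS 9 members differed, against 39.5% of genes, 8 of them lower in females. The call on Hspd1 (-0.16 ± 0.05) was lost without male BPS replicate 3 (adjusted p = 0.0859, edgeR). Under BPSIP 7 differed, against 51.2%: Hspb1, Hspa1a, Hspa1b and Dnajb1 were lower in females and Hsph1, Hsp90aa1 and Hspe1 higher. Under E2 9 differed, against 34.6%, 5 of them lower in females. The call on Hspa8 (0.13 ± 0.04) was lost without female E2 replicate 2 or 3, or male E2 replicate 2 or 3 (adjusted p = 0.0777 to 0.153, edgeR). The call on Hspe1 (0.23 ± 0.06) was lost without female E2 replicate 2, or male E2 replicate 3 (adjusted p = 0.0647 to 0.0828, edgeR). Hspb1, Hspa1a and Hspa1b were lower in females under every exposure, with -0.66 for Hspb1 under E2, its smallest difference.

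Whether an exposure effect differed between the sexes was then tested, as the effect in females minus that in males. Against the controls of each sex, all 10 members had a lower 2,4-BPS effect in females, against 16.8% of genes, from -5.50 ± 0.23 for Hspb1 to -0.36 ± 0.07 for Hspd1. With each effect taken against the other 3 exposures, which leaves out the libraries labelled male control, all 10 were again lower, against 13.7%, from -4.50 ± 0.18 for Hspb1 to -0.34 ± 0.07 for Hspe1. Over all 4 exposures 30 of 40 differences passed against controls, beside 29.7% of all tests, and 35 of 40 against the other 3 exposures, beside 32.4%. The Hsp90aa1 effect of BPSIP was higher in females in both forms (0.72 ± 0.08 and 1.81 ± 0.06). The Hspa1b effect of BPS was also higher in females in both (0.83 ± 0.14 and 1.84 ± 0.11). Other differences changed sign with the form. For Hspb1 under BPSIP the difference was -1.50 against controls but 0.84 against the other 3 exposures. Under BPS the Hspb1 values were -1.76 and 0.50. For Hsp90aa1 under E2 they were -0.31 and 0.44. In the second form the male mean for BPSIP and BPS includes 2,4-BPS offspring, where Hspb1 averaged 117 CPM.

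**Figure D4:**
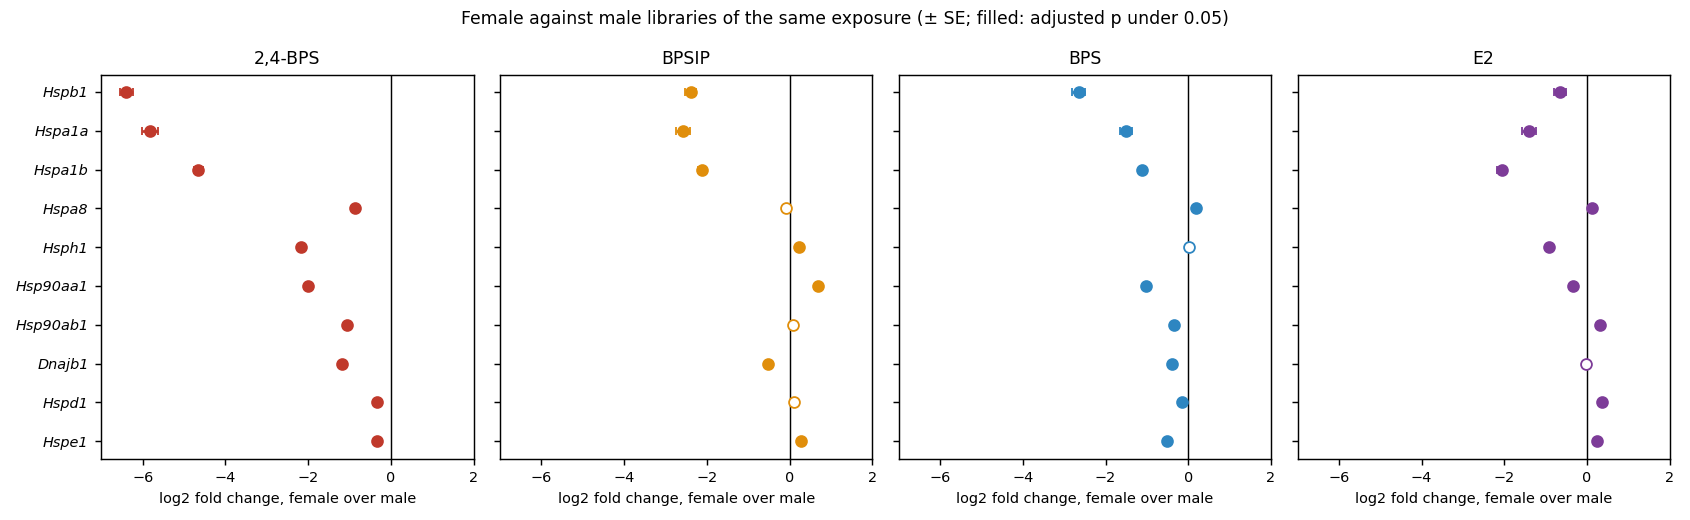
Log2 fold change, female over male libraries of the same exposure, for the 10 chaperone genes (down) in 1 panel per exposure; bars are standard errors and filled points have an adjusted p under 0.05 (edgeR). Under 2,4-BPS all 10 points lie left of 0, from -6.40 for Hspb1 to -0.34 for Hspd1 and Hspe1.

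Other chaperones were followed as lists. The 8 other heat-inducible genes had mean sums of 1065 CPM in male 2,4-BPS and 1150 in male BPSIP libraries. They had 1034 CPM in male BPS, 880 in male E2 and 979 in labelled male control libraries. In females the means were 998 CPM under 2,4-BPS, 978 under BPSIP, 902 under BPS, 839 under E2 and 934 in controls. Mean sums of the 9 other small heat shock protein genes were highest in male 2,4-BPS (288 CPM) and lowest in female controls (142 CPM). Hsf1, the factor that drives the inducible genes, did not pass against control in any exposure, with log2 fold changes of 0.19 ± 0.12 in male 2,4-BPS offspring and -0.05 ± 0.13 in female BPS offspring, which is a statement on its RNA alone. Counts of the lists in males are given against the libraries labelled male control (18.9% of all genes higher and 19.4% lower under 2,4-BPS) and against the mean of the other 3 exposures (13.5% and 12.3%). Of 16 HSP90 co-chaperones tested, 11 rose and 2 fell in male 2,4-BPS offspring against the libraries labelled male control, and 12 were higher and 1 lower against the other 3 exposures. Among them Stip1, which passes clients from HSP70 to HSP90, was higher in both (1.53 ± 0.05 and 1.01 ± 0.04). In female 2,4-BPS offspring 2 of the 16 were higher and 5 lower than the mean of the other 3 female exposures, against 14.6% and 11.7% of genes. Fkbp5, a glucocorticoid-induced HSP90 partner, was lower in male 2,4-BPS offspring in both comparisons (-1.76 ± 0.05 and -0.76 ± 0.04), and higher in female 2,4-BPS offspring against female controls (1.07 ± 0.06). Bag3, the HSP70 exchange factor that is itself an Hsf1 target, was higher in male 2,4-BPS offspring in both (1.10 ± 0.07 and 0.68 ± 0.06), and rose in female BPS offspring against female controls (1.08 ± 0.09).

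All 8 subunits of the cytosolic chaperonin TRiC rose in male 2,4-BPS offspring against the libraries labelled male control, where 18.9% of genes rose. In the same offspring 4 were higher than the mean of the other 3 male exposures, against 13.5% of genes. All 8 were lower in female 2,4-BPS offspring than the mean of the other 3 female exposures, against 11.7% of genes. Of 12 other J-domain genes 8 rose and 1 fell in female BPSIP offspring against female controls, where 19.4% of genes were higher and 19.2% lower. The chaperones of the endoplasmic reticulum, which are driven by the unfolded protein response, were followed too. Of 19 tested, 17 rose and 1 fell in male 2,4-BPS offspring against the libraries labelled male control (18.9% and 19.4% of genes). Hspa5 (BiP) was at 2.16 ± 0.04 and Creld2 at 2.69 ± 0.06 there. Against the mean of the other 3 exposures, 16 were higher and 1 lower under 2,4-BPS in males (13.5% and 12.3%), with Creld2 at 1.93 ± 0.04. In females 1 was higher and 13 lower in that comparison (14.6% and 11.7%). Against female controls 18 rose and 1 fell in BPSIP offspring (19.4% and 19.2%), with Hyou1 at 2.10 ± 0.06. In BPS offspring 14 rose, against 9.32% of genes. The list medians against control were 0.75 in male 2,4-BPS, 0.72 in female BPSIP and 0.29 in female BPS offspring, beside -0.01, -0.01 and -0.01 over all genes.

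Among the 14 other mitochondrial chaperones and proteases 4 rose and 1 fell in male 2,4-BPS offspring against the libraries labelled male control. Of all genes 18.9% rose and 19.4% fell there. Compared with the other 3 exposures 5 were higher and 1 lower, against 13.5% and 12.3% of genes. Grpel2, an exchange factor of mitochondrial HSP70, was lower in both comparisons (-0.81 ± 0.06 and -0.35 ± 0.05). Cirbp and Rbm3 encode RNA-binding proteins that rise when body temperature falls. In male 2,4-BPS offspring they were at 0.30 ± 0.12 and 0.76 ± 0.12 against the libraries labelled male control, but at -0.56 ± 0.10 and -1.03 ± 0.09 against the other 3 exposures. Summed, they were at 36.3 to 40.4 CPM in male 2,4-BPS, 64.9 to 73.3 in male BPSIP, 70.1 to 80.5 in male BPS and 69.2 to 75.4 in male E2 libraries, and at 21.3 to 26.7 CPM in those labelled male control. The male 2,4-BPS sums thus lay below those of every other exposed male library and above those labelled male control. In females the sums were 42 to 44.6 CPM under 2,4-BPS, 58.3 to 60.9 under BPSIP, 37.9 to 42.9 under BPS, 62 to 66.2 under E2 and 28.5 to 35.6 in controls. The part of these genes in the chaperone results was not tested.

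Markers of other cells and of time of day moved with some of these groups. The summed level of all 8 skeletal muscle markers was 12.4 to 27.3 CPM in male 2,4-BPS libraries and 3.11 to 3.72 in those labelled male control, and 7.36 to 39.8 CPM in female 2,4-BPS and 2.64 to 6.15 in female control libraries. In the other exposed groups it was 3.36 to 9.51 CPM in males and 2.22 to 8.56 CPM in females. It was thus above control in the 2,4-BPS groups of both sexes. Male BPS (3.76 to 9.33 CPM) and male E2 libraries (5.95 to 9.51 CPM) also lay above those labelled male control. Muscle also expresses Hspb1, and the part of muscle RNA in its level was not tested. The 14 macrophage and Kupffer cell markers summed to 2521 to 2819 CPM in female BPSIP libraries and 1545 to 1602 in female controls, with 1430 to 1540 in female BPS libraries. These markers summed to 788 to 809 CPM in male 2,4-BPS libraries, 861 to 932 in male BPSIP, 872 to 896 in male BPS and 965 to 1032 in male E2 libraries, and to 1345 to 1447 in those labelled male control. The 19 clock genes summed to 631 to 671 CPM in male 2,4-BPS, 851 to 887 in male BPSIP, 701 to 706 in male BPS and 591 to 627 in male E2 libraries, and to 979.9 to 993 in those labelled male control. In females they summed to 823 to 846 in female 2,4-BPS, 672 to 708 in female BPSIP, 802 to 848 in female BPS, 435 to 471 in female E2 and 860.0 to 895 in female control libraries. The 20 immediate early genes, which respond within minutes to handling, summed to 337 to 349.9 CPM in male 2,4-BPS, 479.7 to 514 in male BPSIP, 231 to 237 in male BPS and 389.8 to 403 in male E2 libraries. Libraries labelled male control had 290 to 321 CPM of these genes. Their sums in females were 245 to 249.9 CPM under 2,4-BPS, 257 to 267 under BPSIP and 343 to 346 under BPS. Female E2 libraries had 367 to 413 CPM of them and female controls 259 to 269. No marker of these lists was at 0 in all 3 libraries of those groups. The sources used here do not give the hour of sampling. The part of these markers in the chaperone results was not tested. The hepatocyte markers summed to 119479 to 131665 CPM in male 2,4-BPS, 120977 to 124541 in male BPSIP and 101063 to 103560 in male BPS libraries. Male E2 libraries had 112147 to 121456 CPM and those labelled male control 154993 to 160172. In females the sums were 162212 to 180277 CPM under 2,4-BPS, 132409 to 148927 under BPSIP and 147880 to 164993 under BPS. Female E2 libraries had 158778 to 167196 CPM and female controls 145319 to 149145. Alb, the serum albumin gene, was at 37188 to 107460 CPM over the 30 libraries.

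The members did not form a single block across libraries. Among the 12 exposed male libraries Pearson's r of log2 CPM was 0.991 between Hspa1a and Hspa1b, 0.977 between Hspb1 and Hspa8, 0.953 between the HSP90 genes and 0.920 between Hspd1 and Hspe1. It was 0.296 between Hspb1 and Hspe1 and 0.410 between Hsph1 and Dnajb1. Among the 15 female libraries it was 0.911 between Hspa1a and Hspa1b and 0.968 between Hspa1b and Dnajb1, but -0.0879 between Hspb1 and Hsph1 and 0.355 between Hspd1 and Hspe1. Hspb1 thus went with the HSP70 genes in males and not in females. These are descriptions over libraries that share groups of 3. Reads that may be shared between Hspa1a and Hspa1b enter their r. Over all 30 libraries and 9142 genes with a mean of at least 5 CPM, the genes outside the set most like Hsph1 were Stip1 (r = 0.941), Creld2, an endoplasmic reticulum chaperone (0.934), and Chordc1, an HSP90 co-chaperone (0.921). Those of Hspb1 included Sec11a, a signal peptidase subunit (0.928), and Gmppa (0.925). For Hspd1 they were the TRiC subunits Cct8 (0.816) and Cct7 (0.794) and the acetyltransferase Naa10 (0.797). Values over 30 libraries mix differences between the sexes with those between exposures.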

How the data were processed

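Livers of 30 mice were sequenced. The authors deposited read counts per gene and FPKM values, in which counts are divided by gene length and library total, for all libraries. Per the submitters' processing notes, HISAT2, HTSeq, DESeq2 and R 3.2.0 were used; for the build, annotation and strandedness of counting, nothing is given in the sources used here. For each gene, the ratio of deposited FPKM to count over library total varied between libraries by at most 5.29e-06 of its value. The FPKM thus used 1 length per gene in all libraries, and these lengths were not checked against an annotation. The members and gene lists were chosen with earlier results of these data known. Counts were tested with edgeR 4.0.16 (quasi-likelihood, robust, TMM factors, its default filter on low counts; limma 3.58.1, R 4.3.3) in 1 fit of 15 libraries per sex and in 1 fit of all 30 for contrasts between the sexes, with Benjamini-Hochberg adjustment over the 13874, 13474 and 14131 genes tested and a threshold of 0.05. Replicates differed by more than sampling noise (chi-square per gene 5.45 to 22.4 over 30 pairs). The p-values rest on the spread between livers within groups, pooled over all groups of a fit and drawn towards that of other genes. CPM uses TMM-scaled totals. Alternatives were RLE factors, library totals alone, no filter, DESeq2 1.42.0, the label's replicate number as a block, other sets of libraries, each library left out, and the mixed comparison. The test was also tried on simulated counts. Besides the members, the text names from each chaperone list up to 3 called genes with the smallest p per exposure against control, and always Hsf1, Cirbp and Rbm3; likeness used log2 CPM with 2 counts added. Reading frames came from GENCODE transcripts, promoters from RefSeq. A gene among those most like Hspb1 is not reported here.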

Additional observations from a re-analysis of the deposited data

Results flagged for a closer look

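Results are listed here because the female minus male difference of an exposure effect passed a test of that difference in a fit of all 30 libraries (edgeR, adjusted p under 0.05). Values are log2 differences, negative where the effect was lower in females. No explanation was weighed.

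With effects taken against the controls of each sex, 30 of 40 differences passed. The male values rest on the libraries labelled male control, whose Y-linked and A1bg levels go against their label in part. For 2,4-BPS the differences were -5.50 for Hspb1, -3.52 for Hspa1a, -2.72 for Hspa1b, -0.97 for Hspa8, -1.73 for Hsph1, -1.96 for Hsp90aa1, -1.03 for Hsp90ab1, -1.19 for Dnajb1, -0.36 for Hspd1 and -0.39 for Hspe1, with adjusted p of at most 0.000206. For BPSIP the differences were -1.50 for Hspb1, -0.18 for Hspa8, 0.67 for Hsph1, 0.72 for Hsp90aa1, -0.53 for Dnajb1 and 0.22 for Hspe1, with adjusted p of at most 0.0405. For BPS the differences were -1.76 for Hspb1, 0.81 for Hspa1a, 0.83 for Hspa1b, 0.45 for Hsph1, -0.9996 for Hsp90aa1, -0.31 for Hsp90ab1, -0.41 for Dnajb1, -0.18 for Hspd1 and -0.55 for Hspe1, with adjusted p of at most 0.0429. For E2 the differences were 0.90 for Hspa1a, -0.47 for Hsph1, -0.31 for Hsp90aa1, 0.33 for Hsp90ab1 and 0.34 for Hspd1, with adjusted p of at most 0.0109. For BPSIP, the call on Hspa8 (-0.18 ± 0.06) was lost without female control replicate 2, or female BPSIP replicate 2, or male control replicate 1, 2 or 3, or male BPSIP replicate 1 or 3 (adjusted p = 0.0509 to 0.0796, edgeR). For BPSIP, the call on Hspe1 (0.22 ± 0.09) was lost without female control replicate 1, or female BPSIP replicate 1, or male control replicate 2, or male BPSIP replicate 1 or 2 (adjusted p = 0.0526 to 0.108, edgeR) and with library totals alone (0.0633). For BPS, the call on Hspa1a (0.81 ± 0.24) was lost without female control replicate 1 (adjusted p = 0.0896, edgeR). For BPS, the call on Hspd1 (-0.18 ± 0.07) was lost without female control replicate 1, 2 or 3, or female BPS replicate 1, 2 or 3, or male control replicate 1, 2 or 3, or male BPS replicate 1 or 3 (adjusted p = 0.0634 to 0.242, edgeR). It was also lost with RLE factors (0.0576) and with no filter (0.079), and held in 4 of the 17 settings run. For E2, the call on Hspa1a (0.90 ± 0.27) was lost without female control replicate 1, or female E2 replicate 2 or 3 (adjusted p = 0.0564 to 0.121, edgeR).

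With effects taken against the mean of the other 3 exposures of the same sex, 35 of 40 differences passed. The libraries labelled male control do not enter these values, and the 4 contrasts of a sex share their libraries. The differences of Hspb1 under BPSIP and BPS and of Hsp90aa1 under E2 are opposite in sign to those against controls. For 2,4-BPS the differences were -4.50 for Hspb1, -4.00 for Hspa1a, -2.89 for Hspa1b, -0.96 for Hspa8, -1.95 for Hsph1, -1.76 for Hsp90aa1, -1.07 for Hsp90ab1, -0.86 for Dnajb1, -0.44 for Hspd1 and -0.34 for Hspe1, with adjusted p of at most 0.000111. For BPSIP the differences were 0.84 for Hspb1, 0.49 for Hspa1b, 1.25 for Hsph1, 1.81 for Hsp90aa1, 0.44 for Hsp90ab1, 0.15 for Hspd1 and 0.47 for Hspe1, with adjusted p of at most 0.0308. For BPS the differences were 0.50 for Hspb1, 1.77 for Hspa1a, 1.84 for Hspa1b, 0.47 for Hspa8, 0.96 for Hsph1, -0.48 for Hsp90aa1, -0.20 for Hspd1 and -0.56 for Hspe1, with adjusted p of at most 0.0343. For E2 the differences were 3.16 for Hspb1, 1.9 for Hspa1a, 0.56 for Hspa1b, 0.38 for Hspa8, -0.26 for Hsph1, 0.44 for Hsp90aa1, 0.74 for Hsp90ab1, 0.66 for Dnajb1, 0.49 for Hspd1 and 0.43 for Hspe1, with adjusted p of at most 0.00128. For BPSIP, the call on Hspd1 (0.15 ± 0.06) was lost without female BPSIP replicate 2, or male BPSIP replicate 1 (adjusted p = 0.0741 to 0.242, edgeR) and with no filter (0.052). For BPS, the call on Hspb1 (0.50 ± 0.18) was lost without female BPS replicate 1 or 2, or male BPS replicate 2 or 3 (adjusted p = 0.0707 to 0.118, edgeR) and with library totals alone (0.107). For BPS, the call on Hspd1 (-0.20 ± 0.06) was lost without male BPS replicate 3 (adjusted p = 0.0557, edgeR).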

How the results depend on the processing

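Of the single values of the members recomputed under the alternatives, 5635 kept their direction and their side of the threshold, 121 lost a call, 31 gained one and 23 changed sign. Of 325 called results 292 kept direction and call under every alternative run. Library totals alone moved the median of all genes by more than 0.1 in 11 of 40 comparisons (shifts of -0.168 to 0.152 on the log2 scale).

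In female 2,4-BPS offspring against female controls, 2 members were higher, but 1 with library totals alone and 1 to 2 without single libraries; 1 was lower, but 4 with library totals alone, 3 with DESeq2, 3 with only the groups compared and 2 with all 30 libraries. In male BPSIP offspring against the other 3 exposures, 2 were higher (Hspa1b and Dnajb1), but 1 with library totals alone, DESeq2 or all 30 libraries and 1 to 2 without single libraries. In female BPS offspring against the other 3 exposures, 1 member, Hspb1, was lower with all 30 libraries. In male E2 offspring the mixed comparison gave 2 higher in place of 4 and 5 lower in place of 2. These causes were not tested.

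Signs changed at small values, apart from that of Hspa1b in male E2 offspring, and these values are log2 fold changes. Hspe1, female 2,4-BPS against female control, came to -0.0477 to 0.0138 without single libraries, beside -0.02. Hspa8, female E2 against female control, came to -0.0428 with library totals alone, beside 0.03. Hsph1, female E2 against female control, came to -0.0324 with library totals alone and -0.0191 to 0.0662 without single libraries, beside 0.03. Hspd1, male BPSIP against libraries labelled male control, came to -0.0046 with all 30 libraries, -0.0073 in the mixed comparison and -0.0497 to 0.0707 without single libraries, beside 0.00377. Hspa1b, male E2 against libraries labelled male control, came to -0.313 in the mixed comparison, beside 0.34. Hspa8, male E2 against libraries labelled male control, came to -0.00103 with library totals alone, -0.00138 with all 30 libraries and -0.00938 to 0.0263 without single libraries, beside 0.01. Dnajb1, male E2 against libraries labelled male control, came to -0.0769 to 0.0778 without single libraries, beside -0.02. Hspa1a, male BPSIP against the mean of the other 3 exposed male groups, came to -0.00695 with library totals alone, -0.0022 with all 30 libraries and -0.0328 to 0.0648 without single libraries, beside 0.01. Hspa1b, male BPS against the mean of the other 3 exposed male groups, came to -0.0211 to 0.161 without single libraries, beside 0.05. Hsp90aa1, female BPS against the mean of the other 3 exposed female groups, came to -0.00882 with library totals alone, beside 0.04.

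The replicate numbers showed no pairing of exposed with control libraries of the same sex: same-numbered deviations correlated at -0.137 to 0.0912 over 24 pairs. Same-numbered females and males of an exposure were not compared in this way. With the replicate block, 358 single values kept direction and call; Hspd1 passed in male BPSIP against the other 3 (adjusted p = 0.0457, edgeR) and Hsp90aa1 no longer in female 2,4-BPS against female E2 (0.0518). Counts of members moved by no more than 1.5 times under the block. Hspb1 and Hspa1a in females rest on few counts, so their small differences are limited by depth.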
